A study of Mus musculus with 4 samples.

Results

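10 genes used to recognise tissue-resident and alternatively activated macrophages were followed by symbol in every library: Retnla, Chil3, Arg1, Mrc1, Cd163, Folr2, Lyve1, Timd4, Mgl2 and Pla2g2d. These are 10 of the 32285 genes listed in each count matrix, and each symbol was found once. They were measured by droplet-based 3′ single-cell RNA sequencing (10x Genomics) in lung and synovium of C57BL/6 female mice aged 4 months. TNF+ mice carried a transgene for human TNF, with joint erosion and disease of the lung vessels, and TNF- mice were littermates without it. Tissue was pooled by genotype, from 3 to 5 mice for lung and from 5 to 10 for synovium, digested with different enzymes in the 2 tissues, and sorted for live cells. Each combination of genotype and tissue, 4 in all, was therefore 1 library, and no difference below has a replicate check.

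Macrophages seeded in tissues before or soon after birth keep a programme of scavenger and lectin receptors, while interleukin-4 and interleukin-13, acting through STAT6, drive the alternative activation programme in macrophages and some dendritic cells. Retnla (the secreted protein RELM-alpha), Chil3 (the chitinase-like protein Ym1) and Arg1 (arginase, which turns arginine into ornithine and urea) are the classic readouts of the second programme in mice. Mrc1, Cd163 and Mgl2 encode endocytic receptors, Folr2, Lyve1 and Timd4 mark resident macrophages around vessels and in tissue linings, and Pla2g2d encodes a secreted phospholipase.

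Counts are unique molecular identifiers (UMIs), 1 per captured transcript. They were summed over the cells of a group and are given as CPM, the gene's UMIs per 1000000 UMIs of that group, with an exact Poisson 95% interval, and a ratio of TNF+ over TNF- carries a conditional binomial 95% interval. All intervals cover counting error only and hold no variation between mice or preparations. The synovial libraries kept 6200 (TNF-) and 3152 (TNF+) cells and the lung libraries 6998 and 9174, with medians of 7137 to 12492 UMIs per cell. The TNF+ synovium stood apart: 17.6% of its barcodes exceeded the limit on mitochondrial UMIs, against 1.41% to 3.78% in the other libraries. Pairs of libraries shared 5 to 21 cell barcodes.

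Cells were clustered within each tissue with the 10 genes left out, and every cell type name below stands for cells like that type, named from marker genes that include none of the 10. C1q macrophages are clusters with the complement genes C1qa, C1qb and C1qc among their markers. They were divided into perivascular-like cells, with 70% or more of the markers of resident perivascular macrophages, and other C1q macrophages. The perivascular-like group held 64 TNF- and 39 TNF+ synovial cells, and 63 TNF- and 77 TNF+ lung cells. Other C1q macrophages were nearly absent from the TNF- tissues, with 4 synovial and 2 lung cells, and numbered 550 (synovium) and 471 (lung) with the transgene. Any value for all C1q macrophages thus sets mostly perivascular-like TNF- cells against mostly other C1q TNF+ cells.

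In the whole synovium, Chil3, Arg1 and Folr2 were at least 2-fold higher in the TNF+ library, where 11.8% of 19255 genes with at least 20 UMIs were, and Retnla, Cd163 and Timd4 were at least 2-fold lower, where 21.9% of these genes were. The log2 ratio was 3.13 (3.01 to 3.25) for Chil3, 2.92 (2.76 to 3.08) for Arg1 and 2.14 (1.88 to 2.41) for Folr2. It was -2.09 (-2.17 to -2.01) for Retnla, -1.54 (-1.78 to -1.30) for Cd163 and -1.09 (-1.40 to -0.79) for Timd4, which was within 2-fold under median-of-ratios scaling (-0.92). In the whole lung, Folr2, Timd4 and Pla2g2d were at least 2-fold higher (background 5.79% of 19510 genes) and Retnla, Cd163 and Lyve1 at least 2-fold lower (background 25.5%), although Retnla was within 2-fold with no filter on cells (-0.92). Pla2g2d had the highest ratio there, 6.94 (6.16 to 7.85), and Lyve1 the lowest, -7.16 (-7.56 to -6.78). In a whole tissue, fewer cells of a type and less RNA per cell cannot be told apart, and the cells that held each gene's UMIs were not the same in the 4 libraries.

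**Figure D1:**
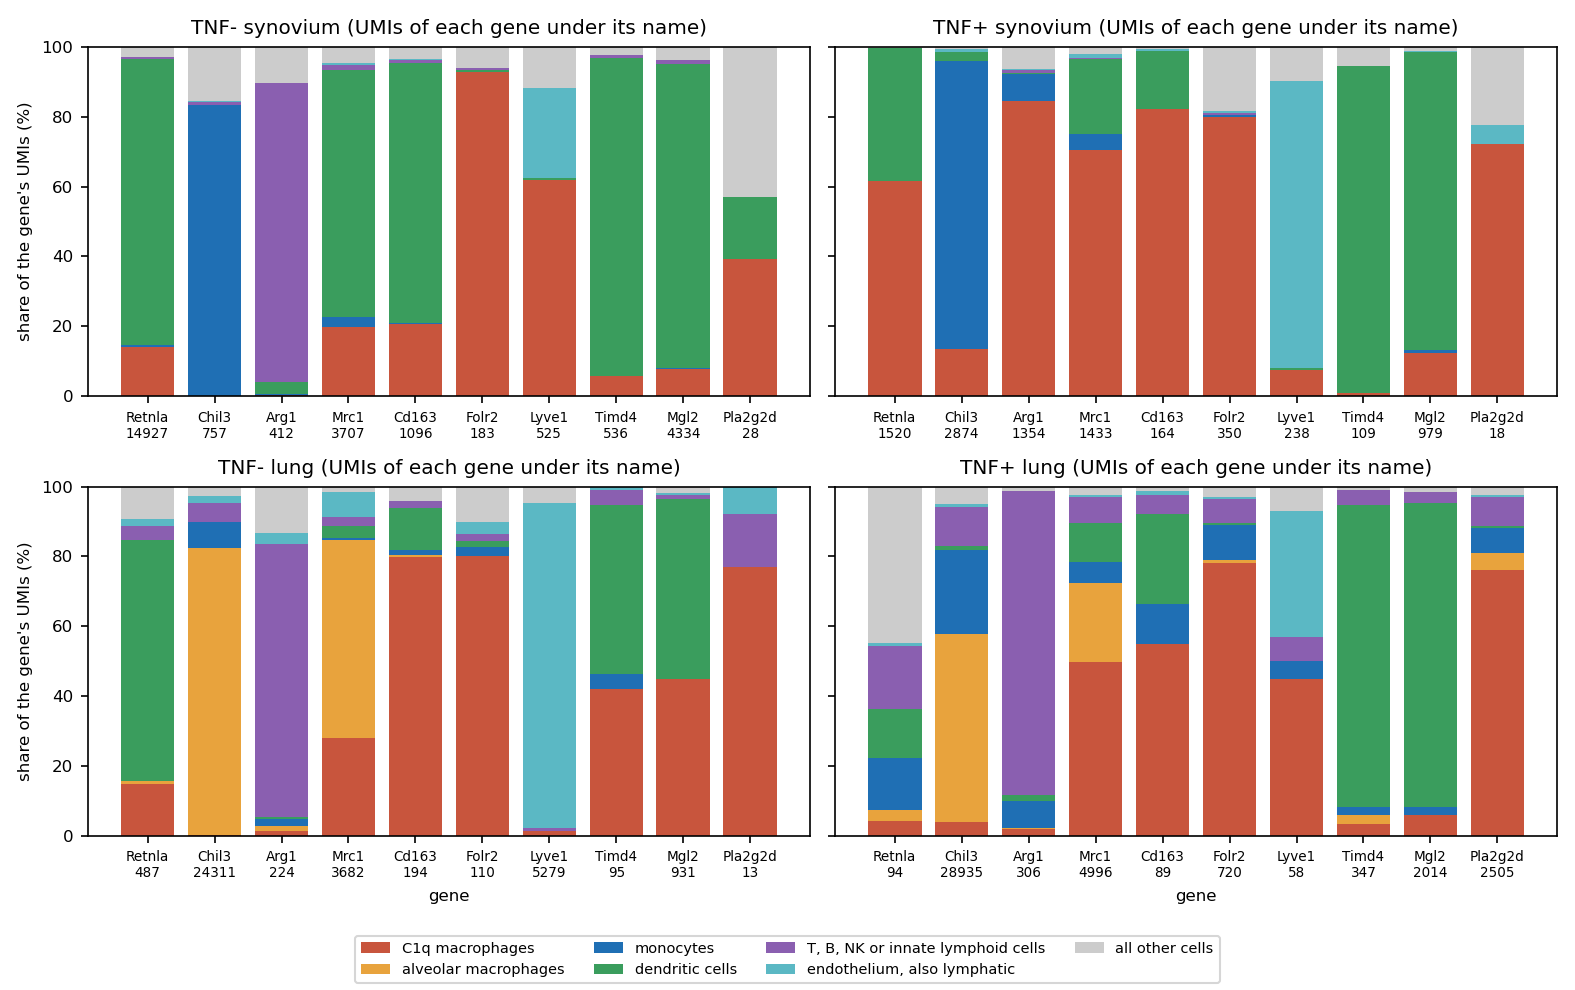
Share of each gene's UMIs (vertical axis, %) held by 6 sets of cells and by all other cells in each of the 4 libraries, with the number of UMIs under each gene name. Clusters of low UMI count are counted with their cell type, names stand for cells like that type, and each bar is 1 library. Dendritic cells held most Retnla, Mrc1, Cd163, Timd4 and Mgl2 UMIs of the TNF- synovium, lymphoid cells its Arg1 UMIs, and endothelium most Lyve1 UMIs of the TNF- lung.

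Retnla was mainly a synovial gene, with 14927 UMIs (TNF-) and 1520 UMIs (TNF+) in the synovium against 487 and 94 in the lung. In the same order this was 196 CPM (193 to 199), 46.0 CPM (43.7 to 48.4), 9.05 CPM and 1.11 CPM. The order of the libraries was the same in macrophages and monocytes as a class, at 709, 69.9, 10.9 and 0.476 CPM, but without the highest cell of each library the middle pair came to 5.75 CPM (TNF+ synovium) and 5.73 CPM (TNF- lung). Most of this RNA was not in cells named macrophages: cells named type 2 dendritic held 81.2% of the Retnla UMIs of the TNF- synovium and perivascular-like cells 12.7%. Of all kept synovial cells, type 2 dendritic cells were 4.56% without the transgene (283 cells) and 0.698% with it (22 cells). Cd209a, Zbtb46 and Flt3 were among the markers that gave them this name, and in the TNF- synovium they had 939, 108 and 63.1 CPM of these against 37.7, 17.6 and 7.54 in perivascular-like cells, and 78.3 CPM of C1qa against 3007. The same 283 cells shared other genes with macrophages: Mrc1 was found in 210 and Cd163 in 160, against 52 and 33 of 64 perivascular-like cells. The split rests on the cluster names.

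Few cells carried this RNA, and they carried much of it. In the TNF- synovium, 66 cells with at least 20 Retnla UMIs held 97.2% of the total, 49 of them dendritic cells and 13 macrophages or monocytes. Such cells numbered 4 in the TNF+ synovium, where they held 99.4% of the UMIs, 3 in the TNF- lung and 0 in the TNF+ lung. Retnla was found in 17 of 64 perivascular-like TNF- synovial cells and in 3 of 39 TNF+ cells, and in 79 of 283 and 2 of 22 type 2 dendritic cells. After each cell was thinned to 1000 UMIs, the share of perivascular-like cells with Retnla was 18.8% (10.1 to 30.5) and 7.89% (1.66 to 21.4), with overlapping intervals. In T and B cells, which gauge free RNA, it was 0.521% (TNF-) and 0% (TNF+, 0 to 2.25) of the thinned synovial cells, at unthinned medians of 9223 and 5802 UMIs against 11318.5 and 8583 in perivascular-like cells.

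The summed levels did not follow these shares. TNF- synovial perivascular-like cells had 2380 CPM of Retnla (2274 to 2490) and their TNF+ counterparts 2231 CPM (2090 to 2378), a log2 ratio of -0.09 (-0.21 to 0.02). A single TNF+ cell held 861 of the 936 UMIs. Without the highest cell of each library the levels were 1714 and 191 CPM, a log2 ratio of -3.17. Type 2 dendritic cells were at 2303 and 2336 CPM, and at 1213 CPM in the TNF+ synovium without its highest cell. In the TNF- lung the 534 CPM of type 2 dendritic cells came from 1 cell of 43 with 335 UMIs, and in the TNF+ lung the same cells were at 3.81 CPM. Lung perivascular-like cells had 68 Retnla UMIs in 4 of 63 TNF- cells (85.9 CPM) and none in 77 TNF+ cells. With 3 UMIs put in place of 0 the TNF+ level was 12.8-fold lower. However, 1 TNF- cell held 51.5% of the 68 UMIs, and the TNF- level without it was 42.0 CPM. The TNF+ cells were also shallower, with a median of 5300 against 12589 UMIs, and the name of this lung group depends on the clustering.

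**Figure D2:**
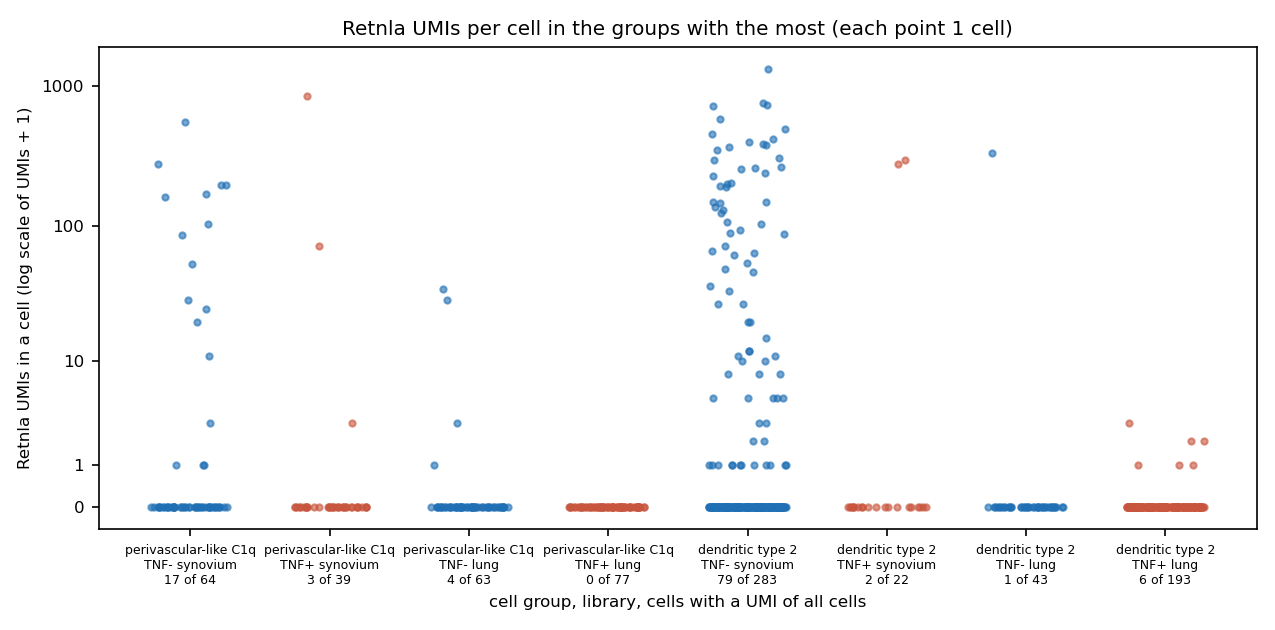
Retnla UMIs in each perivascular-like C1q macrophage and type 2 dendritic-like cell (vertical axis, log scale of UMIs + 1), by library. Each point is 1 cell, blue for TNF- and red for TNF+, and the labels give the cells with a UMI of all cells. In the TNF+ synovium, 3 of 39 and 2 of 22 cells carried Retnla, and 1 cell held 861 UMIs.

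Of the 10 genes, 8 have a promoter window in the RefSeq table of build GRCm38.p6, and none is held there for Arg1 and Lyve1. The 300-base windows, 250 bases before to 50 after the start, were searched on both strands for TTC and GAA set 4 bases apart (the spacing that STAT6 prefers), TTCNNNGAA (other STAT factors), TTGCGCAA (C/EBP type), TATAAA, GAGGAAGT (PU.1 type) and the NF-kB consensus. Only the windows of Retnla and Chil3 held any of these. Retnla, on chromosome 16 from 48842551 to 48844461 on the plus strand, had TTCACAAGAA at -145, ACTTCCTC (GAGGAAGT on the other strand) at -198 and TATAAA at -30. The gene coordinates are those of GENCODE, and match positions count from the RefSeq start. For Retnla the RefSeq start follows base 48842608 and lies inside the GENCODE gene. Chil3, on chromosome 3 from 106147554 to 106167564 on the minus strand, had TTCTTAGAA at -172 and TATAAA at -3. Of all 32851 windows in the table, 6.95% held the STAT6-type letters, 8.30% TTCNNNGAA, 0.183% TTGCGCAA, 13.6% TATAAA, 3.20% GAGGAAGT and 0.155% the NF-kB consensus. No searched motif overlapped another in these windows, and a match describes letters and not a bound site. The 250 bases before each start are shown 5′ to 3′ because these 2 windows held STAT-type letters, differently spaced and in capitals. A link between these letters and the cells that carried the genes was not tested. Retnla is chr16:48842359-48842608 on the plus strand and Chil3 chr3:106167565-106167814 on the minus strand.
Retnla: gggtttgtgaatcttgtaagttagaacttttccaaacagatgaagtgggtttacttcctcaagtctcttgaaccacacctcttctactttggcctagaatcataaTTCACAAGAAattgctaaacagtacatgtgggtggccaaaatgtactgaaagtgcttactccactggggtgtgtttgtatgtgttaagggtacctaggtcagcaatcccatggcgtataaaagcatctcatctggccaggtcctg
Chil3: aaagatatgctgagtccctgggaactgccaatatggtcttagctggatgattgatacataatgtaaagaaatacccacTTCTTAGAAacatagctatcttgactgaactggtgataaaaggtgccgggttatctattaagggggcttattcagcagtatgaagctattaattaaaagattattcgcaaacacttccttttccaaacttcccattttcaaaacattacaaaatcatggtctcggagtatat

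Chil3 was a gene of alveolar macrophages in the lung and of monocytes in the synovium. TNF- alveolar macrophages had 12078 CPM (18296 UMIs in 103 cells) and TNF+ ones 10698 CPM (10501 UMIs in 72 cells), a log2 ratio of -0.18 (-0.21 to -0.14). With alveolar clusters of low UMI count included, such cells held 82.5% of the Chil3 UMIs of the TNF- and 53.9% of those of the TNF+ lung. Over all lung macrophages and monocytes the level was 2947 CPM without and 464 CPM with the transgene, while nonclassical monocytes, which had 85.7 and 157 CPM, were 310 and 2713 of the 604 and 3556 cells of that class. Classical monocytes were at 814 and 724 CPM in the lung and at 531 CPM (486 to 579) and 917 CPM (877 to 958) in the synovium, a synovial log2 ratio of 0.79 (0.65 to 0.93). The synovial name joined different clusters: 65 of the 67 TNF- cells came from cluster 8, led by Gm9733, Plac8 and Ly6c2, and 154 of the 155 TNF+ cells from cluster 3, led by Slpi, Ccr1 and F10.

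In C1q macrophages Chil3 was low or absent in the TNF- tissues. None of 68 TNF- synovial C1q macrophages had a Chil3 UMI, and 107 of 589 TNF+ cells did, at 38.3 CPM. With 3 UMIs put in place of 0 the TNF+ level was 11.2-fold higher, and the lower limit of the log2 ratio was 3.18. No synovial T or B cell of the TNF+ library (0 of 165) had one. In the lung, C1q macrophages were at 30.3 and 123 CPM, and T and B cells at 61.1 and 96.9 CPM, although 12 of the 2282 TNF- T and B cells held at least 50% of their Chil3 UMIs. Thinned to 1000 UMIs, 11.7% (8.92 to 14.9) of other C1q macrophages and 11.9% (10.8 to 13.1) of T and B cells of the TNF+ lung had Chil3. Reads of Chil3 may also be shared: 26.9% of the 50-base stretches of its transcripts occur in Chil4 or Gm6522.

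Most Arg1 UMIs of the synovium lay in different cells in the 2 libraries. In the TNF- synovium, NK or innate lymphoid cells held 83.7% of its 412 UMIs, at 190 CPM (171 to 211), and Il5, Gata3 and Il13 were among the leading genes of their cluster. In the TNF+ synovium, other C1q macrophages held 83.6% of 1354 UMIs, at 118 CPM (112 to 125), with Arg1 in 176 of 550 cells, or 7.86% (5.75 to 10.4) after thinning, and in 0 of 165 T and B cells. Of these, the cluster of 508 cells led by Trem2, Ms4a7 and Spp1 was at 123 CPM and that of 42 cells led by Orm1 at 77.3 CPM. Perivascular-like cells had 0 Arg1 UMIs in the TNF- synovium and UMIs in 1 of 39 TNF+ cells. Synovial classical monocytes had 1 UMI (1.02 CPM) without and 105 UMIs (48.1 CPM) with the transgene, a log2 ratio of 5.56 (3.05 to 10.87), again nearly all cluster 8 against cluster 3.

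Over all synovial macrophages and monocytes Arg1 was at 0.718 CPM (2 UMIs) and 93.0 CPM (1248 UMIs), a log2 ratio of 7.02 (5.16 to 10.06). Lung macrophages and monocytes did not come near this level, with 11 Arg1 UMIs (1.61 CPM) without and 30 (0.752 CPM) with the transgene, below the T and B cells at 2.58 and 4.41 CPM. Lung NK or innate lymphoid cells were at 63.2 and 57.7 CPM, a log2 ratio of -0.13 (-0.50 to 0.24), and within them the cluster with Gata3 and Il1rl1 was at 429 CPM (29 cells) and 134 CPM (87 cells). By level, the synovial TNF- lymphoid cells came first, the TNF+ other C1q macrophages second, and the lung lymphoid cells of both libraries next, with overlapping intervals.

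**Figure D3:**
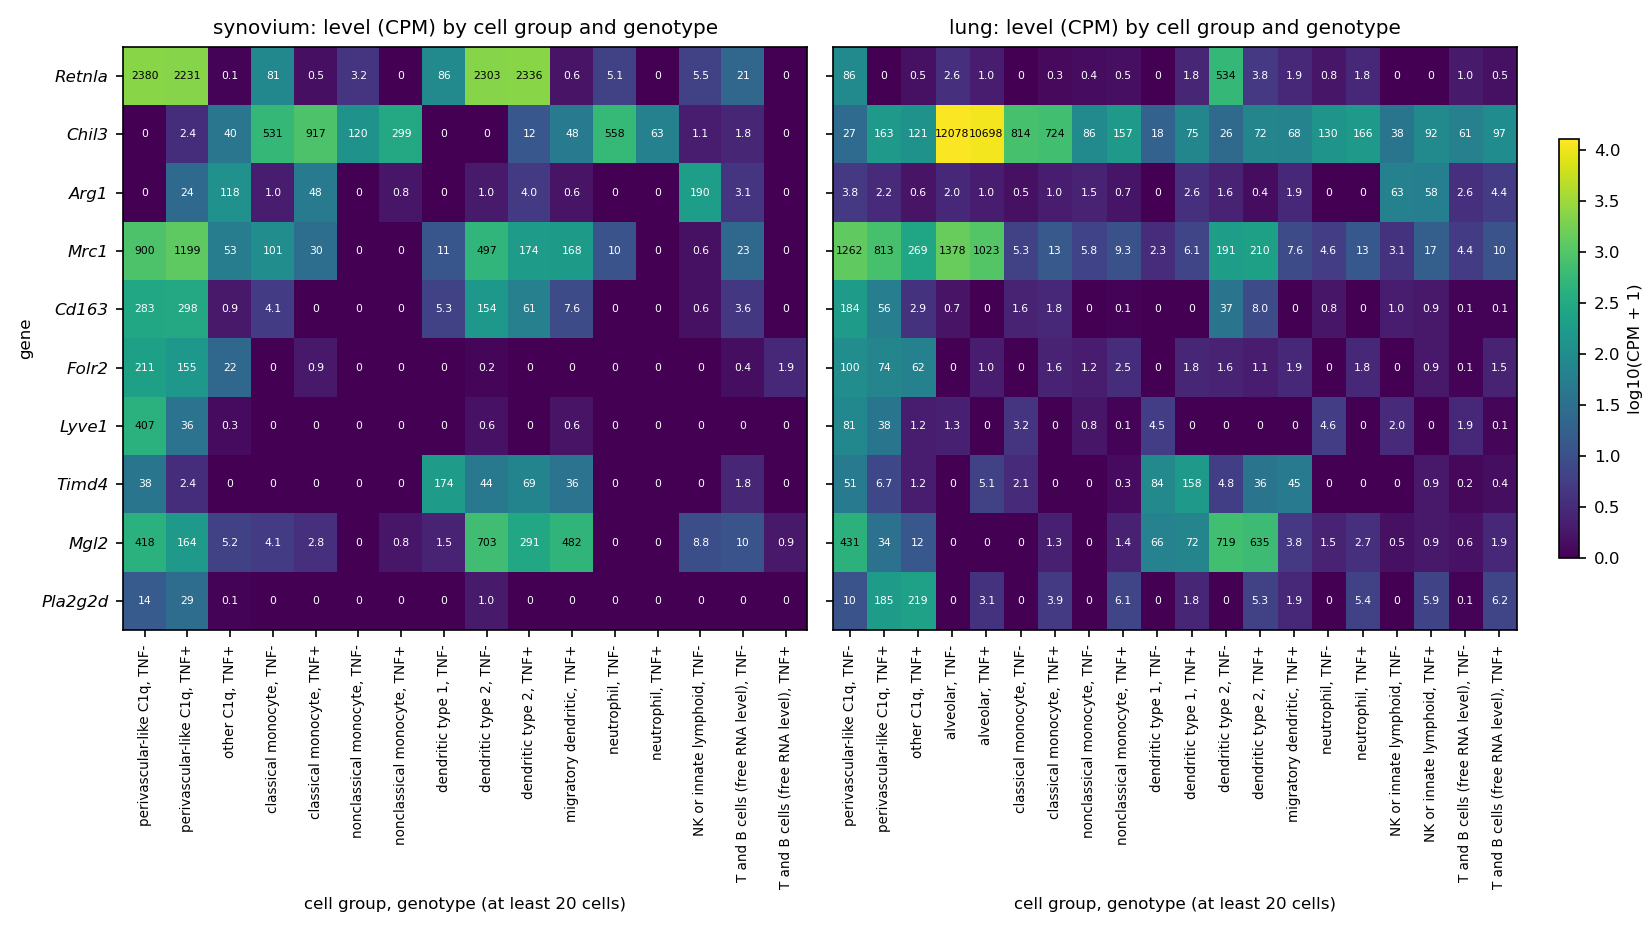
Level of the 10 genes (rows) in each cell group of at least 20 cells (columns), for synovium and lung. The colour is log10(CPM + 1), the number in each cell is CPM, and names stand for cells like that type. Retnla stood out in perivascular-like and type 2 dendritic groups of the synovium, Chil3 in alveolar macrophages, and Pla2g2d in C1q macrophages of the TNF+ lung.

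Among the endocytic receptors, Mrc1 (the mannose receptor) was carried by alveolar, perivascular-like and type 2 dendritic cells. Lung alveolar macrophages had 1378 CPM without and 1023 CPM with the transgene, and lung perivascular-like cells 1262 and 813 CPM. In the synovium, perivascular-like cells were at 900 CPM (835 to 968) and 1199 CPM (1096 to 1308), a log2 ratio of 0.41 (0.25 to 0.58), which turned, to as low as -0.92, with the 10 genes kept for clustering and with each library clustered by itself. The share of perivascular-like synovial cells with Mrc1 was 45.3% (32.8 to 58.3) and 57.9% (40.8 to 73.7) after thinning, against 0% of T and B cells in both libraries. Other C1q macrophages were lower, with 52.8 CPM in synovium and 269 CPM in lung of TNF+ mice. TNF- type 2 dendritic cells of the synovium had 497 CPM and held 70.6% of the library's Mrc1 UMIs.

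Cd163, the receptor for haemoglobin bound to haptoglobin, was narrower. Perivascular-like synovial cells were at 283 CPM (247 to 322) and 298 CPM (248 to 355), with Cd163 in 33 of 64 and 21 of 39 cells. Other C1q macrophages of the TNF+ synovium had it in 6 of 550 cells (0.941 CPM). In the lung, perivascular-like cells were at 184 and 55.9 CPM, and 1 cell held 60.0% of the 25 TNF+ UMIs. Type 2 dendritic cells carried Cd163 as well, with synovial levels of 154 CPM (TNF-) and 60.6 CPM (TNF+).

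Mgl2 (CD301b, a lectin that binds galactose-type sugars) was carried by type 2 dendritic cells, at 703 and 291 CPM in the synovium and 719 and 635 CPM in the lung. In the TNF+ synovium, 95 migratory dendritic cells held 78.1% of its 979 UMIs, at 482 CPM. Synovial perivascular-like cells had 418 CPM (375 to 466) without and 164 CPM (128 to 208) with the transgene, a log2 ratio of -1.35 (-1.74 to -0.97), and 1 TNF+ cell held 43.5% of the UMIs. Thinned, 37.5% (25.7 to 50.5) and 7.89% (1.66 to 21.4) of these cells had Mgl2, against 0.521% and 0% of T and B cells. The intervals of the perivascular-like cells do not overlap, but they hold no variation between mice, and the TNF+ cells of this name depend on the clustering. Of its 50-base stretches, 13.1% occur in other genes, among them Clec10a, the related lectin gene.

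Folr2, the folate receptor beta, lay mainly in C1q macrophages, which held 71.8% to 91.8% of its UMIs in the 4 libraries. Synovial perivascular-like cells had 211 CPM (180 to 246) without and 155 CPM (120 to 197) with the transgene, a log2 ratio of -0.45 (-0.88 to -0.03). The TNF+ synovium had more Folr2 in total, 350 against 183 UMIs, of which other C1q macrophages held 61.4% at 22.5 CPM. 1 of these 550 cells held 38.6% of their UMIs. In the lung, perivascular-like cells were at 99.8 and 73.7 CPM, and other C1q macrophages of the TNF+ lung held 67.6% of 720 UMIs at 62.3 CPM, with 174 CPM in the cluster of 161 cells led by Cxcl13. An exon of Folr2, on chromosome 7 from 101839988 to 101857194, overlaps the antisense gene Gm10602, which was counted separately.

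Lyve1, a hyaluronan receptor, was lower within the perivascular-like group itself. Synovial perivascular-like cells had 407 CPM without and 35.7 CPM with the transgene, a log2 ratio of -3.51 (-4.36 to -2.77). It was found in 27 of 64 and 3 of 39 of these cells, or 15.6% (7.76 to 26.9) and 5.26% (0.644 to 17.7) after thinning, with overlapping intervals, and in 0 of 193 and 0 of 165 T and B cells. In the whole synovium Lyve1 was at 6.89 and 7.20 CPM, a log2 ratio of 0.06 that was 1.74 with no filter on cells, with lymphatic endothelium, which also carries Lyve1, holding 25.9% and 78.6% of the UMIs. In the lung, endothelium held 89.2% of 5279 TNF- UMIs, at 358 CPM, and the TNF+ endothelium had 6 UMIs, at 4.17 CPM. TNF+ lung endothelium was also smaller (385 against 1932 cells) and shallower (a median of 766 against 6470 UMIs), and the part of this in the Lyve1 difference was not tested.

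Timd4, a receptor for phosphatidylserine on dying cells, was carried mainly by dendritic cells in 3 of the 4 libraries. Type 1 dendritic cells had 174 CPM (152 to 198) in TNF- synovium, and 83.9 (TNF-) and 158 CPM (TNF+) in lung. Perivascular-like cells had 30 UMIs in 11 of 64 TNF- synovial cells (37.7 CPM) and 1 UMI in 39 TNF+ cells (2.38 CPM), a log2 ratio of -3.98 (-9.33 to -1.39). In lung perivascular-like cells the counts were 40 UMIs in 7 of 63 cells and 3 UMIs in 2 of 77 cells, and 1 TNF- cell held 55.0% of the former.

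Pla2g2d set the TNF+ lung apart. The synovial libraries held 28 (TNF-) and 18 (TNF+) UMIs and the lung libraries 13 and 2505. Other C1q macrophages held 68.3% of the TNF+ lung UMIs at 219 CPM (208 to 229), and among them the 161 cells led by Cxcl13, C1qc and Ccl8 were at 546 CPM and the other 310 cells at 41.6 CPM. Perivascular-like cells of the lung were at 10.1 CPM (8 UMIs, 4.36 to 19.9) and 185 CPM (83 UMIs, 148 to 230). T and B cells had 2 UMIs in 2282 TNF- and 194 in 3109 TNF+ cells, and thinned, 12.1% (9.30 to 15.4) of other C1q macrophages and 0.780% (0.501 to 1.16) of T and B cells of the TNF+ lung had the gene.

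Over macrophages and monocytes as a class, 8 of the 10 genes were at least 2-fold lower in the TNF+ synovium, against a background of 20.2% of 11486 genes, and 1 (Arg1) at least 2-fold higher, against 8.77%. Chil3 was the exception, with a log2 ratio of -0.14 (-0.27 to -0.01). The median over the 10 was -2.53 and over all genes -0.23. In C1q macrophages the same 8 were lower (background 22.5%) and Chil3 and Arg1 higher (background 10.7%), with log2 ratios from -2.78 (-3.06 to -2.49) for Folr2 to -8.42 (-13.77 to -5.83) for Timd4. The whole tissue, the class and its subtypes share the same libraries and are not separate evidence.

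The make-up of the class moved with these ratios. Equal weighting of subtypes used those of at least 20 cells in both libraries. It left out other C1q macrophages, with 4 TNF- and 550 TNF+ cells. Over the rest of the synovial class, 3 genes were then at least 2-fold lower, with no share over all genes computed for that weighting. Retnla (-0.14), Mrc1 (0.30), Cd163 (0.055) and Folr2 (-0.44) were within 2-fold, and Pla2g2d was at least 2-fold higher (1.05). Perivascular-like cells were the only C1q macrophages in that weighting. Synovial monocytes had 0 UMIs of Lyve1, Timd4 and Pla2g2d, so for these genes it gives the perivascular-like ratio by construction. Perivascular-like cells were 64 of 68 TNF- and 39 of 589 TNF+ synovial C1q macrophages. Within perivascular-like cells alone, 8 of the 10 genes had at least 20 UMIs, of which 3 (Lyve1, Timd4 and Mgl2) were at least 2-fold lower, against a background of 12.1% of 6175 genes. Pla2g2d was higher, at 11 and 12 UMIs with a log2 ratio of 1.05 (-0.26 to 2.37), against a background of 8.13%, and its interval includes no difference. Retnla, Mrc1, Cd163 and Folr2 lay within 2-fold, and the median over the 8 was -0.27, against -0.08 for all genes. The named TNF+ cells depend on the clustering: with the 10 genes kept for clustering, or with each library clustered by itself, 77 and 70 TNF+ cells took the name, and Retnla (-1.76 and -1.57), Cd163 (-1.43 and -1.44) and Folr2 (-1.18 and -1.07) were then at least 2-fold lower too, while Mrc1 (down to -0.92) was lower within 2-fold.

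In the lung, 8 of the 10 genes were at least 2-fold lower in TNF+ macrophages and monocytes (background 14.7% of 14610 genes) and Pla2g2d was higher, with a log2 ratio of 5.40 (4.42 to 6.61; background 4.71%). Folr2 lay between, at 0.30 (-0.03 to 0.66), and the median over the 10 was -3.02 against -0.12 for all genes. Chil3 and Mrc1 were among the 8 with ratios of -2.67 and -2.28, although both were within 2-fold in alveolar macrophages. With subtypes weighted equally they were also within 2-fold (-0.15 and -0.51). That weighting left out other C1q macrophages, with 2 TNF- and 471 TNF+ lung cells. Arg1, also among the 8, missed 2-fold under 6 other settings, Timd4 did with no filter on cells (-0.21) and with dendritic clusters included (-0.57), and Chil3 did with no filter on cells (-0.81). In C1q macrophages, Retnla, Mrc1, Cd163, Lyve1, Timd4 and Mgl2 were lower (background 11.5% of 11390 genes), from -2.04 (-2.15 to -1.94) for Mrc1 to -7.43 (-9.35 to -6.01) for Retnla. Pla2g2d, at 4.49 (3.50 to 5.70), and Chil3, at 2.03 (1.46 to 2.66), were higher (background 8.39%), Chil3 beside the T and B cell levels given above and at -0.29 with doublets removed.

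**Figure D4:**
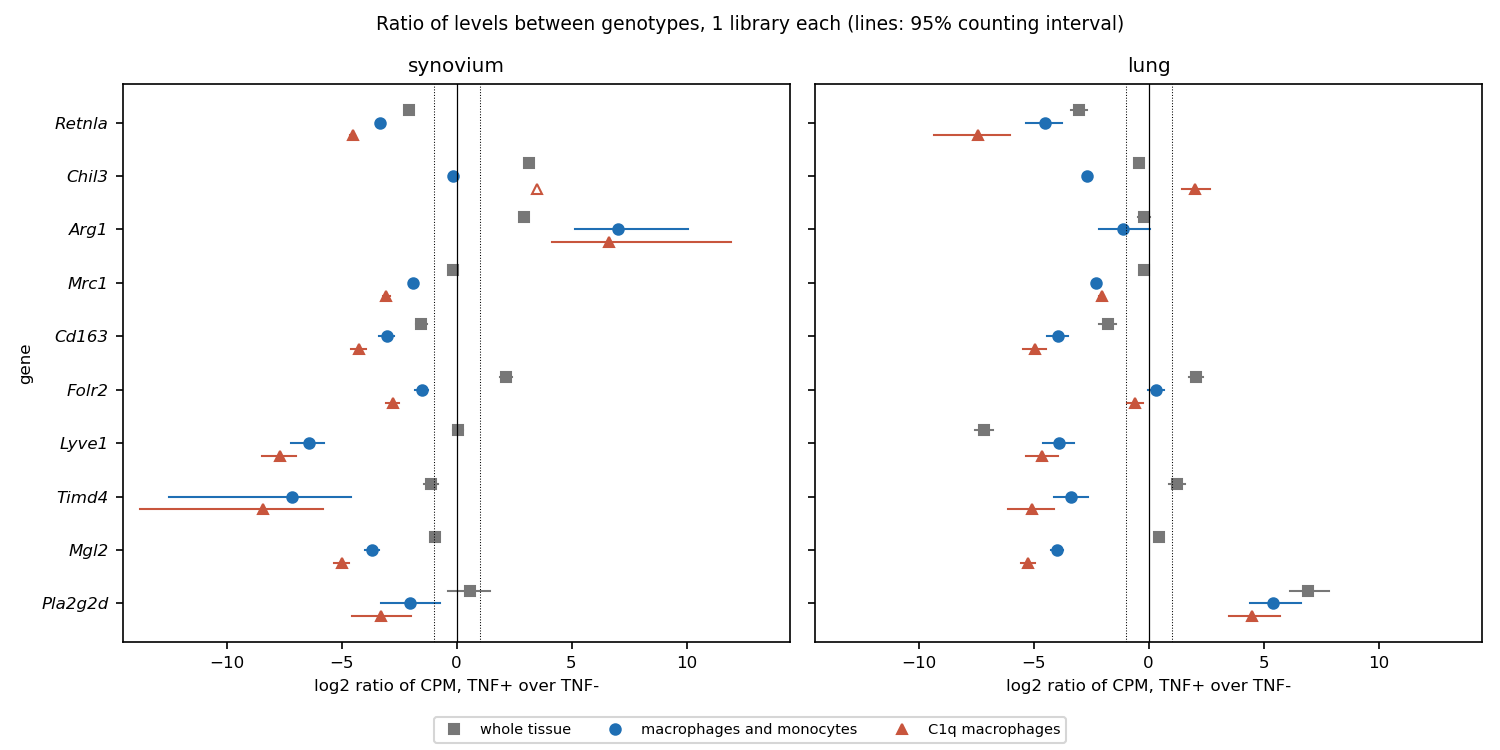
Log2 ratio of CPM, TNF+ over TNF- (horizontal axis), for the 10 genes in synovium and lung, with 1 library per genotype. Grey squares are whole tissues, blue circles macrophages and monocytes, red triangles C1q macrophages, lines are 95% counting intervals, dotted lines mark 2-fold, and the open triangle is a lower bound. In macrophages and monocytes, 8 of 10 genes lay below -1 in the synovium (background 20.2%) and 8, not all the same, in the lung (background 14.7%). Arg1 in the synovium (background 8.77%) and Pla2g2d in the lung (background 4.71%) lay above 1.

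The lung perivascular-like group is less certain than the synovial one. Its TNF+ cells were shallower (a median of 5300 against 12589 UMIs) and had 396 CPM of Marco, 1307 of Stab1 and 518 of Ccl8 against 2.53, 402 and 32.8 in the TNF- cells, but 4.47 CPM of Fcna and 4.47 of Ccl24 against 90.9 and 126. Of 7 other filters or cluster settings, keeping the 10 genes for clustering named 65 TNF- and 75 TNF+ cells, and each of the others named 4 or fewer TNF+ cells. No count of genes past 2-fold is therefore given for it. Side by side, its TNF- and TNF+ cells had 431 and 33.5 CPM of Mgl2, 80.8 and 38.0 CPM of Lyve1 and 50.5 and 6.70 CPM of Timd4.

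In TNF- synovial perivascular-like cells, Mrc1 was found in 52 of 64 cells and Mgl2 in 42. All 28 cells with Folr2 and all 27 with Lyve1 also had Mrc1, and 24 cells had both Folr2 and Lyve1. Of the 17 such cells with Retnla, 16 had Mrc1 and 16 had Mgl2. In the TNF+ synovium, where Mrc1 was found in 31 of 39 perivascular-like cells, all 21 with Cd163 had it. At least 3 of the 10 genes were found in 38 of 64 TNF- and 20 of 39 TNF+ perivascular-like synovial cells. The same held for 164 of 283 TNF- and 5 of 22 TNF+ type 2 dendritic cells of the synovium, and for 34 of 63 TNF- and 26 of 77 TNF+ perivascular-like lung cells. Among other C1q macrophages of TNF+ mice it held for 20 of 550 (synovium) and 150 of 471 (lung). These counts were not thinned, and free Chil3 RNA can add to those of the lung. In the TNF+ lung, Chil3 was found in 340 of 471 other C1q macrophages and in 1764 of 3109 T and B cells. In the TNF+ synovium it was found in 0 of 165 T and B cells. At least 3 of the genes were found in 14 of 1549 T cells of the TNF+ lung and 0 of 129 of the TNF+ synovium. The part of free RNA in the lung counts was not tested.

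Across 22 myeloid groups of at least 50 cells, taken from the 4 libraries and so sharing library and depth, the genes most like each member were described by Pearson's r of log2(CPM + 1). Mrc1 was most like Rab3il1 (0.92), Nrp2 and Dab2, and Cd163 most like Fcrls (0.90), Plxna4 and Bmp2. Folr2 was most like Ildr2 (0.91), Chp2 and Pf4, Lyve1 most like Tmod1 (0.93), Gas6 and Col14a1, and Pla2g2d most like Cp (0.90), Ccl8 (0.89) and Nuak1. Timd4 was most like Hepacam2 (0.94), Fgfr1 and H2-Ob, and Mgl2 most like Gfra2 (0.91), Cd209d and Adgrg6. Arg1 was most like Npy (0.92), Csf3 and Agbl3, Chil3 most like Apoc1 (0.87), Soat1 and Mfsd5, and Retnla most like Ndnf (0.81), Smoc2 and Erf. Of the 1290 Arg1 UMIs in these groups, 1132 lay in other C1q macrophages of the TNF+ synovium, so its r rests mostly on 1 group. UMIs of other members were also uneven: 1711 of 2023 for Pla2g2d lay in other C1q macrophages of the TNF+ lung. For Retnla, 12115 of 14315 lay in type 2 dendritic cells of the TNF- synovium, and for Lyve1, 324 of 440 in its perivascular-like cells. Ndnf and Smoc2 had 325 and 251 UMIs in these groups, and their free RNA was not gauged. Between the 10 genes r ran from -0.68 for Retnla and Chil3 to 0.78 for Cd163 and Mgl2.

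Other genes of these programmes were read in macrophages and monocytes from 4 lists, and genes with at least 20 UMIs are counted. The background in this class was 8.77% of genes higher and 20.2% lower in the synovium, and 4.71% higher and 14.7% lower in the lung. Of other alternative activation genes in the synovium, 5 of 15 were at least 2-fold higher and 4 lower, with a median of 0.07 against -0.23 for all genes. The higher ones included Slc7a2 (5.81), an arginine transporter, the elastase Mmp12 (4.28), Fn1 (2.09) and Il1rn (1.98), and the lower ones were the chemokine Ccl24 (-3.96), Ear2 (-3.80), Clec10a (-2.26) and Ptgs1 (-2.13). In the lung 14 of 19 were lower and 2 higher, with a median of -1.23 against -0.12. The lipoxygenase gene Alox15 (143 and 1 UMIs, -9.71, interval -15.02 to -7.21), Ccl24 (-4.36), Slc7a2 (-3.09) and Socs2 (-2.47) were among the lower, and the higher ones were Il10 (4.33) and Pdcd1lg2 (1.23), which encodes PD-L2.

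Of the type 2 cytokine list in the synovium, 4 of 11 genes were lower (background 20.2%), Irf4 (-2.20), Pparg (-2.20), Klf4 (-1.16) and Tyk2 (-1.12), and 1 was higher (background 8.77%), Socs1 (1.06), with a median of -0.78. In the lung 4 of 14 were lower (background 14.7%), Il1rl1 (-2.68), Socs1 (-2.34), the interleukin-4 receptor gene Il4ra (-1.06) and Irf4 (-1.04), and 2 higher (background 4.71%), Il2rg (1.42) and Il33 (7 and 88 UMIs, 1.10, interval -0.0014 to 2.46), with a median of -0.29.

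Of the resident programme, 11 of 24 genes were lower in the synovium (median -0.80, background 20.2%), led by Cd209g (-3.33), Cd209f (-2.85), Cbr2 (-2.74) and Maf (-2.28), and 2 were higher (background 8.77%), the haem oxygenase gene Hmox1 (3.92) and Ccl8 (6.46 and 39.3 CPM). In the lung 13 of 29 were lower (median -0.86, background 14.7%), led by Fcna (-5.08), Cd5l (-3.89), F13a1 (-3.15) and Cd209g (-3.14), and 4 higher (background 4.71%), Ccl8 (5.33), Marco (1.37), Spic (1.36) and Nr1h3 (1.06). Of the genes named here, Cd209g, Cd209f, Cbr2, Maf, Fcna, F13a1 and Ccl8 are also markers used to name perivascular-like cells, as is Ccl24 above. Those cells were 64 of 221 TNF- and 39 of 933 TNF+ cells of the synovial class, and 63 of 604 and 77 of 3556 in the lung. The part of this make-up in the list ratios was not tested. Of the classical activation list, 6 of 14 were higher and 5 lower in the synovium (median -0.14, backgrounds as above), with Saa3 (6.76), Ptgs2 (2.80), Ccl5 (2.31) and Cd38 (2.02) higher and Il6 (-2.35), Cxcl10 (-1.90) and Cd86 (-1.65) lower. In the lung 4 of 16 were higher and 6 lower (median -0.49, backgrounds as above): Fpr2 (1.58), Marco, which both lists hold, Il1b (1.19) and Il6 (4 and 49 UMIs, 1.06, interval -0.38 to 3.00) were higher, and Nos2 (-6.14), Ptgs2 (-4.44), Cxcl9 (-3.52) and Cxcl10 (-1.83) lower. Other than the CPM of Ccl8 and the counts, each value in parentheses is a log2 ratio of TNF+ over TNF- or its interval, read against the all-gene medians of -0.23 in the synovium and -0.12 in the lung.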

How the data were processed

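The authors deposited counts: UMIs per gene and cell barcode, with no normalization, made with Cell Ranger 7.0.1 on mm10 per the submitters' processing notes. Of the study's own steps, the cell filter was kept: 200 to 5000 genes and at most 20% mitochondrial UMIs. No deposited file read here assigns cells to types. The TNF- and TNF+ synovium held 6899 and 4246 barcodes, with 76203216 and 33047125 UMIs in kept cells of 90427403 and 48454234 before the filter. The lungs held 8555 and 11243 barcodes, with 53800390 and 84398714 UMIs in kept cells of 96120328 and 155989523. The filter thus removed a large part of the lung UMIs, and ratios with no filter on cells are given where a call changed. The matrices list mouse Tnf and no human TNF, so the transgene was not measured.

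Each tissue was clustered over both libraries (scanpy 1.11.5, leidenalg 0.10.2): 10000 UMIs per cell, log, 2000 variable genes without the 10 members, 30 components, 20 neighbours, Leiden resolution 0.8, and myeloid clusters were clustered again. Harmony, used by the study, was not run. A name needed at least 3 markers, 2-fold above other cells and detected in 10% of cells, and 25% to 70% of a list by level of naming. These thresholds were set after the data were seen. Clusters with a median under 1/3 of their library's UMIs were kept apart as low-UMI clusters, outside the class of macrophages and monocytes. Doublets were removed only in an alternative (the highest Scrublet scores, 0.8% of cells per 1000 barcodes). Levels were planned for groups of at least 50 cells and are also given for groups of 20 to 49. For shares, 2142 cells under 1000 UMIs were left out.

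UMIs were summed per group, with exact Poisson, conditional binomial and Clopper-Pearson 95% intervals (scipy 1.17.1). With 1 library per group no test was run, and p-values are not given. A gene is past 2-fold with at least 20 UMIs over both libraries and a log2 ratio of 1 or more in either direction. A ratio against 0 used a floor of 3 UMIs. The ratio code was tested on simulated counts, which do not hold the unevenness between cells. All 10 members are named, with the 4 highest and 4 lowest genes past 2-fold of each list and the 3 genes most like each member, except 1 list gene that is not reported here. The members and lists were chosen with earlier results of these data known. Gene positions come from GENCODE vM21 (GRCm38) and promoters from RefSeq (GRCm38.p6).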

Additional observations from a re-analysis of the deposited data

Results flagged for a closer look

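For 3 of the 10 genes the ratio of TNF+ over TNF- was past 2-fold in opposite directions in the 2 tissues. Each direction rests on 1 library per group, and the difference between tissues was not tested. Arg1 in macrophages and monocytes had a log2 ratio of 7.02 in the synovium and -1.10 (-2.14 to 0.04) in the lung, where the counts were 11 and 30 UMIs and the levels below those of T and B cells. Pla2g2d had -2.03 in the synovium (11 and 13 UMIs) and 5.40 in the lung (8 and 1976 UMIs) in macrophages and monocytes, and -3.27 and 4.49 in C1q macrophages. Its ratio in synovial macrophages and monocytes was -0.99 with dendritic clusters included. With subtypes weighted equally, which leaves out other C1q macrophages, it was 1.05. That value is the ratio of perivascular-like cells (11 and 12 UMIs, interval -0.26 to 2.37), because the synovial monocytes had 0 UMIs of the gene. Timd4 in whole tissues had -1.09 in the synovium and 1.22 in the lung, and most of its UMIs were in dendritic cells in 3 of the libraries.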

How the results depend on the processing

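The counts of genes past 2-fold stayed within 1.5 times their value in 93 of 100 recomputed counts. In synovial macrophages and monocytes, 2 genes were higher with dendritic clusters included, and 2 were higher and 3 lower with subtypes weighted equally. In lung macrophages and monocytes, 2 were higher and 5 lower with no filter on cells, 5 lower with a minimum of 100 UMIs, which left 7 genes, and 5 lower with subtypes weighted equally. The share of all genes past 2-fold was not computed under these alternatives, so the counts stand without a background. The alternatives with dendritic clusters, equal subtypes, low-UMI clusters, free RNA from T and B cells alone and the highest cell left out were chosen after the data were seen. Among ratios past 2-fold, the sign turned in 7 values: with dendritic clusters included Folr2 in synovial macrophages and monocytes (0.046), with subtypes weighted equally Mrc1 (0.30), Cd163 (0.055) and Pla2g2d (1.05) there, Pla2g2d in synovial perivascular-like cells with the members kept for clustering (-0.51) and with each library clustered by itself (-0.43), and Chil3 in lung C1q macrophages with doublets removed (-0.29). Ratios within 2-fold also crossed 0, such as Mrc1 (down to -0.92) and Cd163 (-1.43 and -1.44) in synovial perivascular-like cells under the same 2 clustering settings, Chil3 in synovial macrophages and monocytes with dendritic clusters included (1.47), and Chil3 (0.79) and Mrc1 (0.43) in the whole lung with each cell weighted equally. The causes were not tested, except that equal weights by construction remove the shift between subtypes. For Pla2g2d in the synovium they give the ratio of perivascular-like cells alone. Lung perivascular-like cells gave no comparison under 6 settings. No paired analysis was possible because each group is 1 library and the labels give no replicate numbers. Depth limits the low genes: outside the TNF+ lung, Pla2g2d had 13 to 28 UMIs in a whole library.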

Other observations

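Macrophage clusters of low UMI count, which were left out of the class of macrophages and monocytes, carried several of the genes. In the TNF+ lung, 243 alveolar macrophages of low UMI count (a median of 1214 UMIs) had 8283 CPM of Chil3 and 188 CPM of Pla2g2d, and 122 C1q macrophages of low UMI count had 571 CPM of Pla2g2d and 210 CPM of Folr2. In the TNF- synovium, 5 C1q macrophages of low UMI count had 216 Retnla UMIs, and 10 cells named osteoclast had 219.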
